A study of Mus musculus with 31 samples.

Results

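The genes described here carry carbon from acetyl-CoA to palmitate in the liver. They are Acly, Acss2, Acaca, Acacb, Fasn, Thrsp, Mid1ip1 and Mlycd, taken by name as each step from citrate or acetate to palmitate, its reversal, and the small proteins that regulate it. The array carried 22 probes for these 8 genes, and 21 of them were among the 36059 probes analysed, which cover 23968 gene names. The livers came from 31 male C57BL6/J mice, each measured on its own one-color Agilent array. There were 8 ChREBPβ-deficient mice (labelled ChREBPbeta_KO), 8 WT littermates of that line (ChREBPbeta_WT), 7 total ChREBP-KO mice (ChREBPtotal_KO) and 8 WT littermates of the second line (ChREBPtotal_WT). All mice were fasted for 24 hours and then refed for 18 hours with food and drinking water holding 20% glucose, so no group shows the fasted liver, and their ages are not given in the sources used here. ChREBPβ-deficient mice lack the alternative first exon of Mlxipl, the gene of the glucose-responsive transcription factor ChREBP, in every cell. Total ChREBP-KO mice are Mlxipl-null and lack the α and β isoforms, also in every cell, so neither line isolates the hepatocyte. The comparisons ask whether the lipogenic genes of the refed liver need ChREBPβ alone or either isoform.

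The pathway starts in the cytosol. ATP-citrate lyase (Acly) splits citrate that has left the mitochondrion, and acetyl-CoA synthetase (Acss2) activates free acetate, and both give acetyl-CoA. Acetyl-CoA carboxylase adds a carboxyl group to make malonyl-CoA, in the cytosol (Acaca) for synthesis and at the outer mitochondrial membrane (Acacb), where malonyl-CoA restrains the entry of fatty acids for oxidation. Fatty acid synthase (Fasn) builds palmitate from these units with NADPH. Mid1ip1 helps the carboxylase to polymerize, Thrsp (Spot 14) is its relative and is induced by carbohydrate and thyroid hormone, and malonyl-CoA decarboxylase (Mlycd) turns malonyl-CoA back into acetyl-CoA.

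Levels are given as log2 of the spot signal after quantile normalization, so 1 unit is a doubling, and levels of different probes cannot be set against each other. Each gene is given by its brightest probe unless another probe is named. Differences are knockout minus WT littermates, with the standard error (SE) of a limma fit over all 4 groups, and a probe is called when its p-value adjusted over all 36059 probes is under 0.05. In whole liver, fewer cells of a type and less RNA per cell cannot be told apart.

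Mlxipl itself was lower in both knockouts on its brightest probe. In the 8 ChREBPβ-deficient mice its lowest, median and highest log2 signals were 14.40, 14.64 and 14.84, against 14.88, 15.06 and 15.33 in WT littermates. In total ChREBP-KO mice they were 13.89, 14.11 and 14.30, against 15.14, 15.25 and 15.48. The groups did not overlap in either line, and the differences were -0.45 (SE 0.07, adjusted p = 0.0152) and -1.16 (SE 0.07, adjusted p = 8.05e-13). The signal left in total ChREBP-KO mice was not at background, and the files do not say whether the probe lies outside the deleted part, so the check on the labels is partial. Of the 2 other Mlxipl probes, A_55_P2728555 gave -0.46 (adjusted p = 0.909) and -0.59 (adjusted p = 0.00313), and A_55_P2045158 gave -0.06 and -0.05, neither of them called. The call in ChREBPβ-deficient mice was the only one among all probes of that comparison, and its adjusted p ranged from 0.00585 to 0.477 over the alternatives tried.

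Liver identity and array quality were compared before the genes. Alb held one value (18.96) on all arrays, which quantile normalization gives to a top-ranked probe, so the hepatocyte sum was taken over the other 5 markers (Apoa1, Ttr, Apob, Cps1, Cyp2e1). It lay between 19.07 and 19.39 log2 units in the ChREBPβ line, and was 19.44 to 19.53 in total ChREBP-KO mice against 19.01 to 19.21 in their WT littermates, without overlap. The 5 markers were not alike in this. Cyp2e1 (0.69), Cps1 (0.44) and Ttr (0.17) were called higher in total ChREBP-KO mice, and Apoa1 (0.08) and Apob (0.05) were not called. Of 6 exocrine pancreas markers, Cpa1, Cpb1 and Pnlip did not pass the filter. The summed signal of Cel, Ctrb1 and Cela2a reached 13.98 in 1 WT littermate in the total ChREBP-KO line. Its median was 10.47 in that group and 10.97 in total ChREBP-KO mice. Taken singly, Cel (-0.80, adjusted p = 0.0478) and Ctrb1 (-0.77, adjusted p = 0.0464) fell with the total knockout and passed. Cela2a (-0.37, adjusted p = 0.627) did not pass. Cela2a (2.13) and Ctrb1 (0.84) also passed as higher in ChREBPtotal_WT than in ChREBPbeta_WT, and Cel (0.79, adjusted p = 0.0619) did not. Of 7 adipocyte markers, Adipoq did not pass the filter, and the sum of the other 6 had a median of 12.61 in ChREBPβ-deficient mice (11.76 to 13.71) and 11.86 in their WT littermates (11.31 to 12.66). None of the 6 was called in that line. Cfd was at 2.04 (SE 1.07) and Cidec at 0.89 (SE 0.43), while Retn (0.11), Fabp4 (0.01), Plin1 (-0.08) and Lep (-0.13) differed little. Cidec was called lower in ChREBPtotal_WT than in ChREBPbeta_WT (-2.03, SE 0.43, adjusted p = 0.00139). Cfd (-1.87, SE 1.07, adjusted p = 0.242) and the rest were not called between these groups. In total ChREBP-KO mice the adipocyte median was 11.44 with a highest of 13.67, and in their WT littermates 11.18 with a highest of 12.81. The 4 bile duct markers summed to 11.62 to 13.51 in total ChREBP-KO mice and 11.38 to 12.45 in WT littermates. Of these, Epcam was called higher in total ChREBP-KO mice (0.97, SE 0.29, adjusted p = 0.0101) and Krt19, Krt7 and Spp1 were not called. The 4 macrophage markers summed to 12.95 to 13.55 and 12.41 to 13.67. The 3 red blood cell markers summed to 16.5 to 17.5 in both groups of the total ChREBP-KO line and to 15.5 to 16.6 in the ChREBPβ line. Between the WT littermates of the lines Hba-a1 (1.05) and Hbb-b1 (1.04) were called higher in the total ChREBP-KO line, and Alas2 (-0.19) was not called. In total ChREBP-KO mice Alas2 was called higher than in WT littermates (0.34, adjusted p = 0.0183), and Hba-a1 (-0.02) and Hbb-b1 (-0.08) were not called. The median local background of the groups was 17.5 to 18, and 1 total ChREBP-KO array reached 33. The part of these values in the results was not tested. Without 6 arrays that stood apart by them, chosen after seeing the data, 19 member probes were called for total ChREBP-KO mice and 0 for ChREBPβ-deficient mice. This leave-out cannot remove the hepatocyte difference, in which the groups did not overlap.

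In total ChREBP-KO mice, 18 of the 21 probes were called lower and 2 higher, and the 18 belong to 7 of the 8 genes. Among all probes, 14.6% were called lower and 14.5% higher. For 13 of the 21 probes every total ChREBP-KO mouse lay below every WT littermate, which held for 4.14% of all probes. The median difference of the 21 probes was -2.06, beside 0.01 for all probes. In ChREBPβ-deficient mice no member probe was called, and 1 of 21 had an unadjusted p under 0.05, beside 0.00277% of all probes called and 4.98% with an unadjusted p under 0.05. All 21 differences were above 0 in that line, from 0.03 to 0.74 with a median of 0.18, as were 49.6% of all probes, and the 21 probes share genes and mice and so are not independent. The sign did not hold within scan days. On the first day, with 3 knockout mice and 4 WT littermates, the brightest probes of 6 of the 8 genes were below 0, from -0.02 for Acss2 to -0.28 for Acly, and Mid1ip1 (0.05) and Mlycd (0.14) were above 0. On the second day, with 5 and 4 mice, all 8 were above 0, from 0.05 for Mlycd to 0.68 for Acss2.

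**Figure D1:**
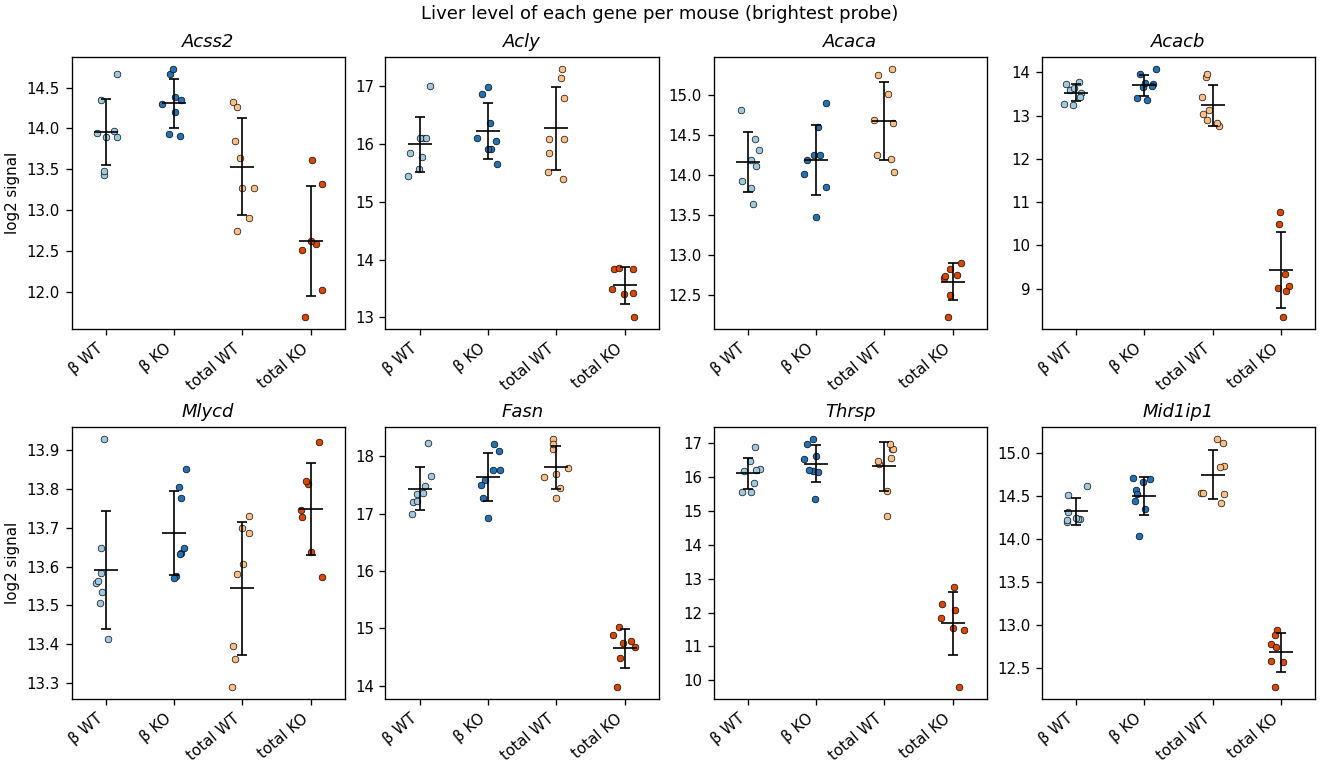
Log2 signal of the brightest probe of each gene (vertical axis) in the 4 groups, 1 point per mouse, with the mean as a bar and the SD as the error bar. In 6 panels the 7 total ChREBP-KO mice (total KO) sit below every other mouse, in Acss2 they overlap their WT littermates, and in Mlycd all groups overlap.

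The sources of cytosolic acetyl-CoA differed in how far they fell. Acly measured 13.01 at the lowest, 13.49 at the median and 13.85 at the highest total ChREBP-KO mouse, against 15.39, 16.09 and 17.30 in WT littermates. No knockout mouse reached the lowest WT littermate. The difference was -2.72 (SE 0.26, adjusted p = 1.79e-09), a 6.59-fold lower level. The second Acly probe, A_55_P2082914, gave -2.65 (SE 0.30), and passed the spot criteria on 19 of the 31 arrays. For the ChREBPβ line, Acly was 15.65, 16.08 and 17.00 in knockout mice and 15.45, 15.98 and 17.00 in WT littermates, which overlap over nearly their whole range. The difference was 0.23 (95% confidence interval -0.27 to 0.74), so a fall of the size seen in total ChREBP-KO mice lies outside the interval. The second probe reads 60 bases on mm9 chr11:100365518-100365577, minus strand, which the array design assigns to Acly. Whether a probe lies in an exon, intron or UTR is not part of the array annotation. Its sequence shows what the array measured for Acly at a site apart from the brightest probe, 5′ to 3′, with no base singled out.
Acly A_55_P2082914: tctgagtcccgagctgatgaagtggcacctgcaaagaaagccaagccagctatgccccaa

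Acss2, which draws on acetate in place of citrate, fell less. Its log2 signal was 11.70, 12.59 and 13.61 at the lowest, median and highest total ChREBP-KO mouse and 12.75, 13.45 and 14.33 in WT littermates. The upper knockout mice lay inside the WT range. The difference was -0.91 (SE 0.25, adjusted p = 0.00577), 1.88-fold lower. Its 3 other probes were also called lower, by -0.44 to -1.29, and all 4 overlapped between groups. Probe A_55_P1988795 met the spot criteria on 25 of the 31 arrays, and its call was lost with each line fitted alone (adjusted p = 0.0506) and with the exact Mann-Whitney test (adjusted p = 0.149). In the ChREBPβ line Acss2 was 13.91, 14.32 and 14.72 in knockout mice and 13.43, 13.92 and 14.67 in WT littermates, a difference of 0.35 (95% confidence interval -0.14 to 0.84). One Acss2 probe, A_55_P2716851, had the largest positive difference of the 21 in ChREBPβ-deficient mice, 0.74 (SE 0.27, unadjusted p = 0.00931, adjusted p = 0.972 by limma), and was not called. The Acss2 call in total ChREBP-KO mice was lost with the exact Mann-Whitney test (adjusted p = 0.0738, with a range of 0.00116 to 0.0738 over all settings). The probe at mm9 chr2:155387492-155387551, plus strand, with a difference of -0.88 in total ChREBP-KO mice, has this sequence, shown beside that of Acly as the other source of acetyl-CoA.
Acss2 A_55_P1988795: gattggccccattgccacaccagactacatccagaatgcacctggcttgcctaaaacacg

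Acaca, the cytosolic carboxylase that commits acetyl-CoA to synthesis, was lower in total ChREBP-KO mice on all 6 of its probes, by -1.54 to -2.48, and the groups overlapped on none. Probe A_52_P318040 met the spot criteria on 24 of the 31 arrays, A_52_P132591 on 26 and the rest on 31. A_52_P318040 was thus kept only by the rule of 6 arrays of 1 group, so it adds little to the agreement of the probes. On the brightest probe the lowest, median and highest values were 12.23, 12.74 and 12.90 in total ChREBP-KO mice and 14.03, 14.66 and 15.31 in WT littermates. The gap between the groups was thus over 1 log2 unit. The difference was -2.01 (SE 0.20, adjusted p = 2.96e-09), 4.02-fold lower. For the ChREBPβ line, the values were 13.48, 14.22 and 14.89 in knockout mice and 13.63, 14.15 and 14.81 in WT littermates. The difference there, 0.03 (95% confidence interval -0.35 to 0.42), was the smallest of the 21. The 6 Acaca probes analysed reach from mm9 chr11:83987047 to chr11:84215152 on the plus strand. Probe A_55_P2121392, at chr11:84009021-84009080, gave -2.37 (SE 0.26), and probe A_55_P2084703, at chr11:84211638-84211697, gave -1.54 (SE 0.18). Both fell, at separate sites of the gene, and their sequences are shown for that reason.
Acaca A_55_P2121392: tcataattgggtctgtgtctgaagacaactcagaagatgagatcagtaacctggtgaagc
Acaca A_55_P2084703: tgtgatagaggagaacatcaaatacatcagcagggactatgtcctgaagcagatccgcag

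Acacb, the carboxylase of the outer mitochondrial membrane, had probes that disagreed. On the brightest probe, A_55_P2019054, the lowest, median and highest values were 8.35, 9.06 and 10.76 in total ChREBP-KO mice and 12.75, 13.08 and 13.96 in WT littermates. Every knockout mouse lay below every WT littermate. The difference was -3.82 (SE 0.25, adjusted p = 1.16e-12), 14.1-fold lower and second in size to Thrsp. Probe A_66_P110803 measured 8.05, 8.35 and 8.61 in total ChREBP-KO mice and 8.25, 8.37 and 8.69 in WT littermates, which overlap. Its difference was -0.03 (95% confidence interval -0.21 to 0.14, adjusted p = 0.808), and it was the 1 member probe not called in total ChREBP-KO mice. Probe A_55_P2921709 measured 5.93 to 6.28 in total ChREBP-KO mice and 6.08 to 6.48 in WT littermates. Its difference was -0.18 (SE 0.06, adjusted p = 0.0395), with an adjusted p of 0.0161 to 0.297 over the alternatives. A_55_P2921709 met the spot criteria on 25 arrays and the other 2 probes on 31, and none was saturated. Which Acacb transcripts each probe binds in liver was not tested. In the ChREBPβ line the brightest probe was 13.35, 13.70 and 14.07 in knockout mice and 13.25, 13.55 and 13.77 in WT littermates, a difference of 0.18 (95% confidence interval -0.31 to 0.66). The brightest probe lies at mm9 chr5:114700702-114700761 and the one without a detected change at chr5:114667674-114667733, both on the plus strand. The second is printed because the 2 probes of 1 gene differed.
Acacb A_66_P110803: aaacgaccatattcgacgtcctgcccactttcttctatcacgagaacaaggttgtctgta

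**Figure D2:**
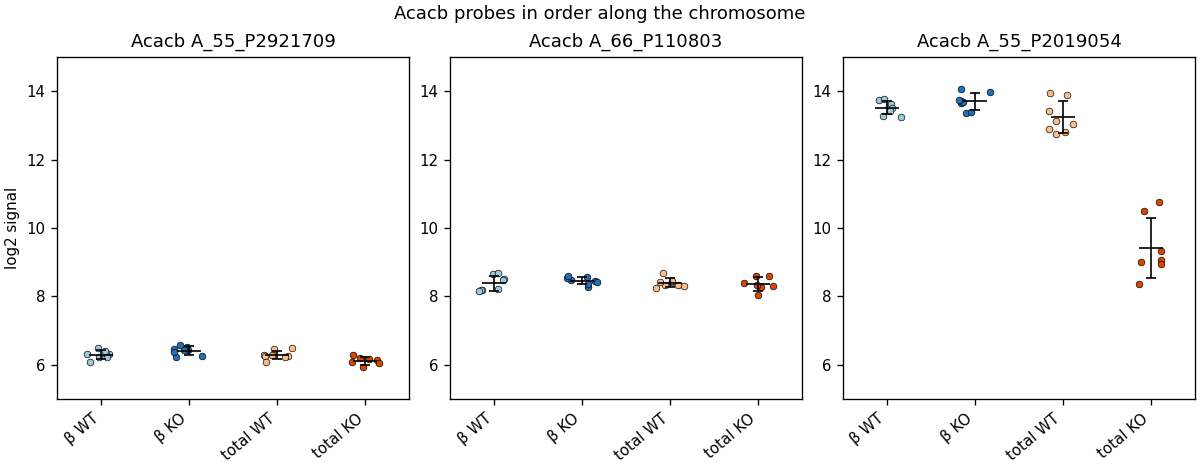
Log2 signal of the 3 Acacb probes (vertical axis, 1 scale for all panels) in the 4 groups, 1 point per mouse, with the mean as a bar and the SD as the error bar. In total ChREBP-KO mice A_55_P2019054 drops to between 8.35 and 10.76, while A_66_P110803 stays between 8.05 and 8.61.

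Fasn, the synthase that ends the pathway at palmitate, has 1 probe on the array. Its lowest, median and highest values were 13.98, 14.75 and 15.02 in total ChREBP-KO mice and 17.27, 17.75 and 18.30 in WT littermates. Even the highest knockout mouse was more than 2 log2 units below the lowest WT littermate. The difference was -3.16 (SE 0.19, adjusted p = 2.05e-13), 8.92-fold lower. For the ChREBPβ line, Fasn was 16.93, 17.67 and 18.21 in knockout mice and 17.00, 17.35 and 18.23 in WT littermates, a difference of 0.20 (95% confidence interval -0.16 to 0.57). The probe was saturated on no array.

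The regulators moved with the enzymes. Thrsp was 9.81, 11.83 and 12.76 at the lowest, median and highest total ChREBP-KO mouse and 14.86, 16.51 and 16.97 in WT littermates, so the groups did not overlap. Its difference of -4.63 (SE 0.33, adjusted p = 1.07e-11) was a 24.8-fold lower level, and its second probe, A_51_P194099, gave -4.82 (SE 0.33), 28.3-fold lower. These were the largest falls among the 21 probes. Thrsp was 15.37, 16.37 and 17.12 in ChREBPβ-deficient mice and 15.55, 16.20 and 16.89 in their WT littermates, a difference of 0.27 (95% confidence interval -0.38 to 0.93). Mid1ip1 was 12.28, 12.75 and 12.94 in total ChREBP-KO mice and 14.41, 14.68 and 15.15 in WT littermates, again without overlap. Its difference was -2.06 (SE 0.11, adjusted p = 4.22e-14), 4.18-fold lower, and this was the smallest adjusted p of the 21 probes. In the ChREBPβ line Mid1ip1 was 14.04, 14.54 and 14.71 in knockout mice and 14.20, 14.24 and 14.61 in WT littermates, a difference of 0.18 (95% confidence interval -0.05 to 0.40). The second Thrsp probe, with the largest fall, lies at mm9 chr7:104565562-104565621 on the minus strand.
Thrsp A_51_P194099: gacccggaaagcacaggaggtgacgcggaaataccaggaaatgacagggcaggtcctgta

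Mlycd, which works against the carboxylases, was the 1 gene that did not fall. Its values were 13.57, 13.75 and 13.92 at the lowest, median and highest total ChREBP-KO mouse and 13.29, 13.59 and 13.73 in WT littermates. The groups overlapped between 13.57 and 13.73, with the 3 lowest mice all WT littermates. The difference was 0.21 (SE 0.07, adjusted p = 0.0332), 1.15-fold higher, and the second probe gave 0.33 (SE 0.11, adjusted p = 0.0248), 1.26-fold higher. These calls were weak. The adjusted p of the brightest probe ranged from 0.0164 to 0.0947 over the alternatives, and leaving out any 1 of WT littermate replicates 1, 3 and 4 or knockout replicates 5, 6 and 7 ended the call, with differences of 0.17 to 0.19. For the ChREBPβ line, Mlycd was 13.57, 13.64 and 13.85 in knockout mice and 13.41, 13.56 and 13.93 in WT littermates, a difference of 0.10 (95% confidence interval -0.05 to 0.24).

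**Figure D3:**
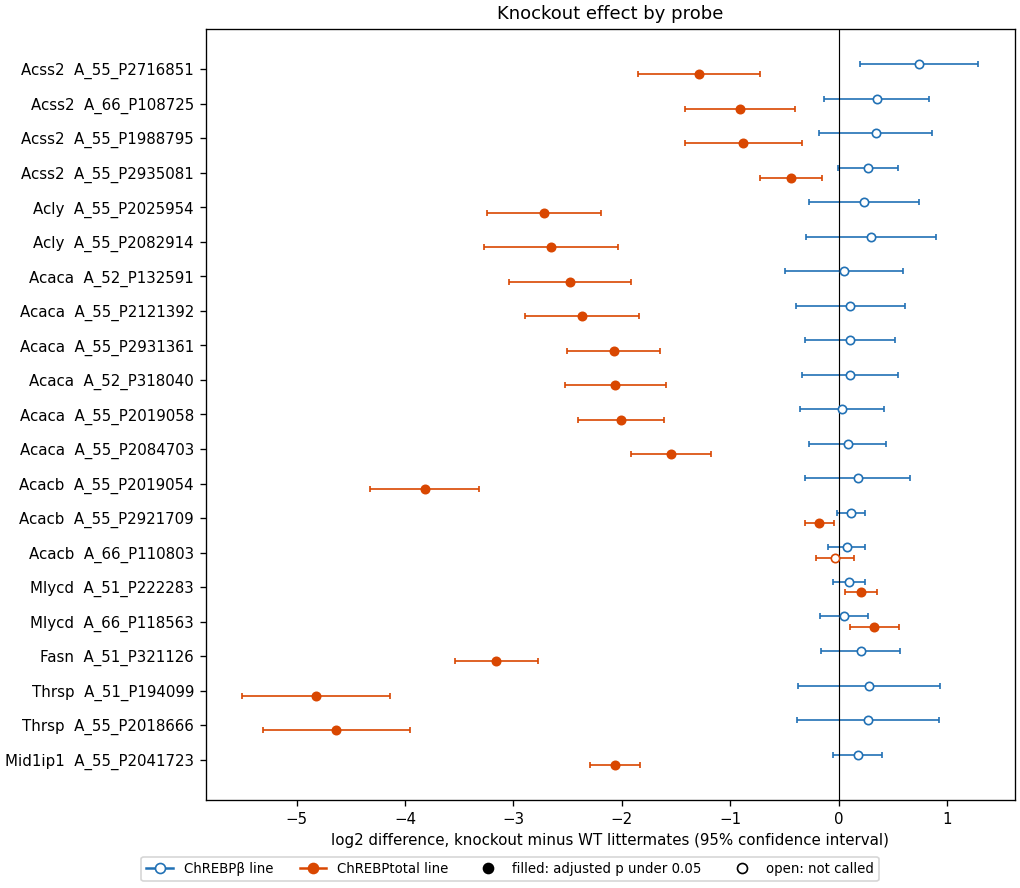
Log2 difference between knockout mice and WT littermates (horizontal axis) for each of the 21 probes, in the ChREBPβ line and the total ChREBP-KO line, with 95% confidence intervals, filled where called. Differences in total ChREBP-KO mice run from -4.82 for Thrsp to 0.33 for Mlycd, and those in ChREBPβ-deficient mice from 0.03 to 0.74 with no probe called.

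The 2 knockout effects were compared directly. The total ChREBP-KO effect minus the ChREBPβ effect was called negative for 18 of 21 probes, beside 8.08% of all probes, and called positive for none, beside 7.02%. The difference of effects was -4.91 (SE 0.46) for Thrsp, -4.00 (SE 0.34) for Acacb, -3.36 (SE 0.26) for Fasn, -2.95 (SE 0.36) for Acly, -2.24 (SE 0.16) for Mid1ip1, -2.04 (SE 0.27) for Acaca and -1.26 (SE 0.34) for Acss2. The adjusted p was 0.0113 for Acss2 and at most 3.03e-06 for the other 6. For Mlycd the difference of effects was 0.11 (95% confidence interval -0.10 to 0.32, adjusted p = 0.531) on the brightest probe and 0.28 (adjusted p = 0.249) on the other. The probes not called were those of Mlycd and Acacb A_66_P110803.

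WT littermates of the 2 lines were not alike. In WT littermates in the total ChREBP-KO line, 6 of 21 probes were called higher than in those of the ChREBPβ line and 0 lower, beside 8.12% and 8.92% of all probes. The 6 were Mid1ip1 (0.42, SE 0.11, adjusted p = 0.0076) and 5 Acaca probes (0.61 to 0.86), and the brightest Acaca probe was at 0.52 (adjusted p = 0.057). All of them overlapped between the groups. Fasn was at 0.37 (adjusted p = 0.158), and without ChREBPbeta_WT replicate 5 it was 0.48 and called. With slide as a fixed block none of the 21 probes was called. The line and everything that differs between the 2 colonies cannot be told apart here.

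The order of the group means followed from these contrasts. For 7 genes total ChREBP-KO mice were lowest, and the next group up was called higher in each, by 0.91 for Acss2 to 4.44 for Thrsp. That group was ChREBPbeta_WT for 5 genes, and 15.3% of all probes had a lower call for total ChREBP-KO mice against it. Among the other 3 groups no neighbours in the order were called different on the brightest probe of any gene. Between ChREBPtotal_WT and ChREBPbeta_KO, where 24.1% of all probes were called, 7 of the 21 were. For Acss2, where these groups were not neighbours, 3 probes were lower in ChREBPtotal_WT (-0.77 to -1.11, the brightest at -0.77 with adjusted p = 0.0179). For Acaca, where they were neighbours, 4 probes were higher (0.53 to 0.80), and the brightest was not called (0.48, adjusted p = 0.0609). ChREBPtotal_WT was highest for Acly, Acaca, Fasn and Mid1ip1, and ChREBPbeta_KO for Acss2, Acacb and Thrsp. For Mlycd total ChREBP-KO mice were highest and ChREBPtotal_WT lowest, and no neighbouring groups were called different. Within each of the 2 scan days, which both held all 4 groups, the total ChREBP-KO effect was negative for the same 7 genes, for example -3.39 and -2.92 for Fasn and -1.21 and -0.66 for Acss2.

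The genes did not fall by equal amounts. Within each of the 15 mice of the total ChREBP-KO line the log2 signal of Fasn minus that of each other gene was taken, and this was compared between genotypes by an exact two-sided permutation test, for 7 pairs. Such a comparison shows unequal change of 2 probes and not of protein, since probes respond to RNA with different slopes. The change of Fasn minus that of the other gene was -3.36 log2 units for Mlycd, -2.25 for Acss2 and -1.15 for Acaca, each with exact p = 0.000155, the smallest that 7 against 8 mice allow, and adjusted p = 0.000363. It was -1.09 for Mid1ip1 (exact permutation p = 0.000311, adjusted 0.000544). In these 4 comparisons all 7 knockout mice lay below all WT littermates. For Acly it was -0.44 (exact permutation p = 0.0151, adjusted 0.0176), with 3 of 7 knockout mice below all WT littermates. Thrsp fell further than Fasn by 1.48 (exact permutation p = 0.000622, adjusted 0.00087), with 6 of 7 knockout mice beyond all WT littermates. Acacb on its brightest probe fell further than Fasn by 0.66 (exact permutation p = 0.023, adjusted 0.023), with 5 of 7 knockout mice above all WT littermates and 1 below. That last call was lost without ChREBPtotal_KO replicate 7 (0.54, adjusted p = 0.0536).

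Some of these genes varied with Fasn among mice of 1 group, and Acaca did so in each. Pearson's r with Fasn was computed within each group for the 7 other genes, 28 relations in all, with exact permutation p-values, and 14 had an adjusted p under 0.05. By Spearman's rho 6 passed, and 4 relations had an adjusted p of r under 0.05 without the 2 mice farthest from the median of Fasn. Acaca followed Fasn in every group, with r = 0.979 in ChREBPβ-deficient mice, 0.948 in their WT littermates, 0.960 in total ChREBP-KO mice and 0.956 in their WT littermates. Spearman's rho was 0.905, 0.952, 0.714 and 0.976. Without the 2 mice farthest from the median of Fasn, r for Acaca was 0.956, 0.887, 0.761 and 0.965. The exact permutation p-values of r for Acaca were 0.000174, 0.000149, 0.00397 and 0.000967, with adjusted values of 0.00162, 0.00162, 0.0139 and 0.00451, and those of rho were 0.00456, 0.00114, 0.0881 and 0.000397, so in total ChREBP-KO mice the ranks did not pass. Centring on scan day left r between 0.948 and 0.987 for Acaca, and a single scan day of a group held 3 to 5 mice, too few for a value of its own.

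WT littermates in the total ChREBP-KO line showed the most relations with Fasn. In these 8 mice Acly had r = 0.987 (rho 1, exact p = 2.48e-05, adjusted 0.000694), Acacb 0.939 (rho 0.952, exact p = 0.000273, adjusted 0.00191) and Thrsp 0.892 (rho 0.905, exact p = 0.000397, adjusted 0.00222). The ranks of these 3 passed as well, with adjusted permutation p-values of rho of 0.00139, 0.00799 and 0.0213, while those of Acss2 (0.0677) and Mlycd (0.103) did not. Acss2 had r = 0.818 (rho 0.810, exact p = 0.017, adjusted 0.0371), and Mid1ip1 0.255 (exact p = 0.530, adjusted 0.594). Mlycd ran the other way, with r = -0.827 (rho -0.762, exact p = 0.0172, adjusted 0.0371). Without the 2 mice farthest from the Fasn median the values were 0.988 for Acly, 0.918 for Acacb, 0.897 for Thrsp, 0.676 for Acss2 and -0.890 for Mlycd. Centred on scan day, Mlycd was at -0.714. In ChREBPβ-deficient mice Thrsp (0.924) and Acly (0.807) also passed, in their WT littermates Thrsp (0.770), and in total ChREBP-KO mice Acly (0.877) and Mid1ip1 (0.867). Their rho was 0.810, 0.814, 0.524, 0.679 and 0.679 in this order, and none of the 5 passed by ranks (adjusted permutation p of 0.0677 to 0.311). Without the 2 farthest mice, r in total ChREBP-KO mice was 0.319 for Mid1ip1 and 0.573 for Acly, with 5 mice left, and r for Thrsp in ChREBPβ WT littermates was 0.190. In ChREBPβ-deficient mice it was 0.743 for Thrsp and 0.813 for Acly. Leaving out these mice narrows the range of Fasn, which by itself can lower r, so whether a relation rests on them cannot be told. In total ChREBP-KO mice replicate 5 had the lowest value of Fasn, Acly, Acaca, Acacb, Thrsp, Acss2 and Mid1ip1. Whether the relation of any gene with Fasn differs between groups was not tested.

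**Figure D4:**
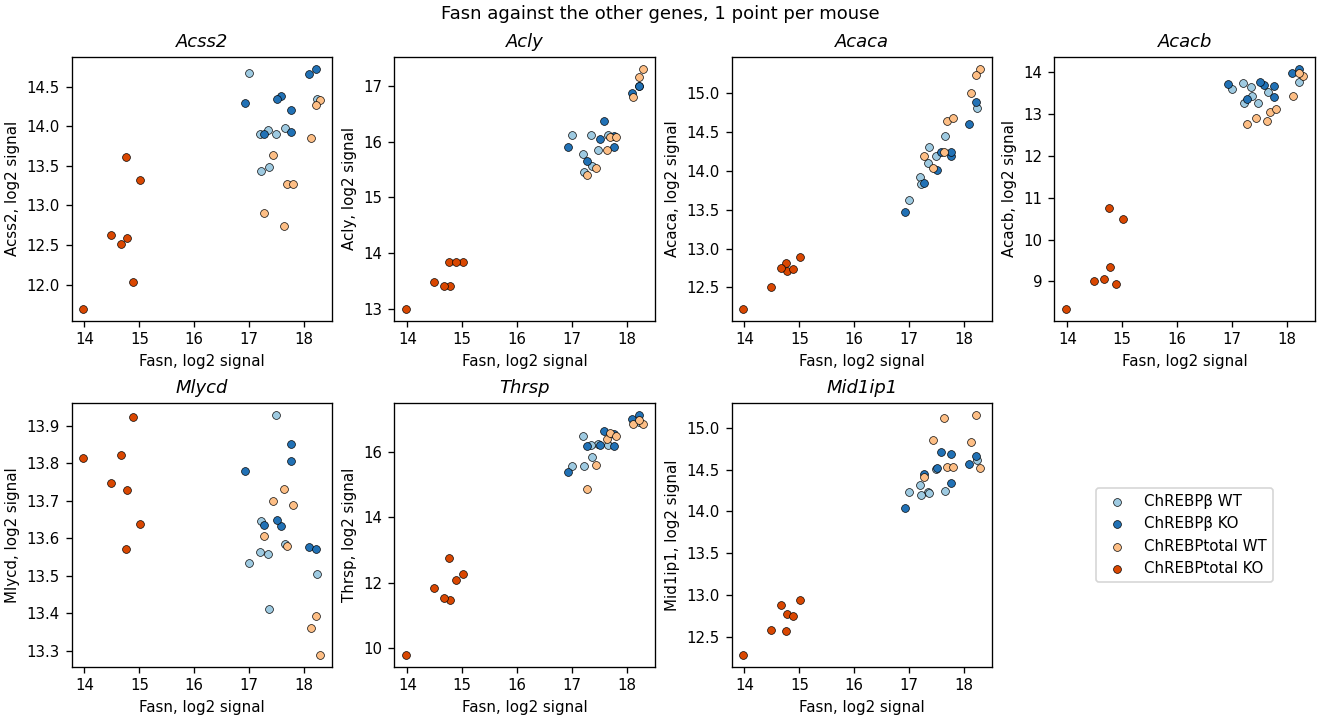
Log2 signal of each other gene (vertical axis) against Fasn (horizontal axis), 1 point per mouse, colored by group. Acaca rises with Fasn in each group, with r between 0.948 and 0.979, and the 7 total ChREBP-KO mice form a separate cluster at a Fasn signal of 13.98 to 15.02, so no correlation over all mice is given.

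The likeness to Fasn was also ranked over all genes, after each group's mean was subtracted, with 31 arrays and with 23968 gene names including Fasn. This is a description. Acaca had the highest r of all genes (0.943), Acly ranked 7 (0.838) and Thrsp 13 (0.822). Mid1ip1 ranked 371 (0.586), Acacb 467 (0.562), Acss2 639 (0.528) and Mlycd 22054 (-0.396). Outside the members the most alike was Elovl6 (0.899), which elongates palmitate. Next came the array entry NAP092820-001 (0.882), Rpia (0.865), an enzyme of the pentose phosphate pathway, Txnl4a (0.858), Ttc23 (0.840), Plcxd1 (0.836), Utp20 (0.832), Gpi1 (0.831), the glycolytic glucose phosphate isomerase, Ywhag (0.831) and E130101M22 (0.823). All 10 were lower and called in total ChREBP-KO mice, from -0.25 for Ywhag to -3.68 for Elovl6, beside 14.6% of all probes. None was called in ChREBPβ-deficient mice, beside 0.00277% of all probes. The arrays share their normalization, which can add to any such likeness.

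Around the core, 5 lists of 7, 4, 7, 6 and 5 genes were read, and all of these genes were measured. In total ChREBP-KO mice 12 of them were called lower and 3 higher, on at least 1 probe, beside 17.1% and 17.3% of all 23968 gene names. None was called in ChREBPβ-deficient mice. Of 7 genes for citrate export and NADPH, 4 were called lower and 1 higher, with a list median over probes of -0.18. Me1, the malic enzyme that makes NADPH, measured 11.11, 11.57 and 12.49 in total ChREBP-KO mice and 13.65, 14.98 and 16.04 in WT littermates. Its groups did not overlap, and the difference was -3.18 (SE 0.29, adjusted p = 6.79e-10), 9.04-fold lower. Pgd of the pentose phosphate pathway was lower by -1.80 (SE 0.22), G6pdx by -0.72 (SE 0.22) and Idh1 by -0.32 (SE 0.06). The 3 Pgd probes differed, since A_55_P2716651 gave -0.40 and A_55_P2716656 gave -0.10 and was not called. Mdh1 was called higher on 1 of its 3 probes (0.44, SE 0.08). The citrate carrier Slc25a1 (-0.15, adjusted p = 0.213) and Aco1 (0.13, adjusted p = 0.216) did not pass.

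Both palmitate-modifying genes of the next list fell and both genes of fatty acid activation and import rose. Scd1, the stearoyl-CoA desaturase, measured 10.75, 13.32 and 14.53 in total ChREBP-KO mice and 15.69, 16.31 and 17.35 in WT littermates, without overlap. Its difference was -3.24 (SE 0.36, adjusted p = 3.90e-08), 9.44-fold lower, and that of Elovl6 was -3.68 (SE 0.33), 12.8-fold lower. Cpt1a, the carnitine palmitoyltransferase that malonyl-CoA inhibits, was higher by 0.995 (SE 0.20, adjusted p = 0.000282), with 13.48, 13.68 and 14.06 in total ChREBP-KO mice and 11.90, 12.89 and 13.34 in WT littermates, without overlap. Acsl1, an acyl-CoA synthetase, was higher by 0.63 (SE 0.11), and 1 of its 3 probes (0.31) was not called. Cpt1a and Acsl1 were also called lower in WT littermates in the total ChREBP-KO line than in those of the ChREBPβ line, and total ChREBP-KO mice had a Cpt1a median (13.68) close to that of ChREBPβ WT littermates (13.63).

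Among 7 subunits and kinases upstream of acetyl-CoA carboxylase, 3 AMP-activated kinase subunits were called lower, Prkag2 (-0.62, SE 0.09), Prkab1 (-0.49, SE 0.08) and Prkaa2 (-0.48, SE 0.13), and none higher. The Prkaa2 call was lost with slide as a fixed block (-0.25, adjusted p = 0.176). Prkag2 (0.25), a second Prkaa2 probe (0.35) and Prkab2 (0.59) were also called higher in ChREBPtotal_WT than in ChREBPbeta_WT. Prkaa1 (-0.0029), Prkab2 (0.07), Prkag1 (0.09) and Stk11 (0.13) did not pass. Of 6 genes of mitochondrial acyl-CoA synthetases and fatty acid synthesis, Mcat was called lower (-0.21, SE 0.05; -0.18 and adjusted p = 0.0567 without the 6 arrays that stood apart), and Acsf3 on 1 of 4 probes (-0.35, SE 0.07), and the list median was -0.12. Of 5 transcription factors, Srebf1 was called lower. This gene of the sterol and insulin responsive factor measured 13.68, 14.51 and 14.64 in total ChREBP-KO mice and 14.89, 15.25 and 15.76 in WT littermates, without overlap, and the difference was -0.91 (SE 0.14, adjusted p = 5.38e-06). Mlx, the partner of ChREBP on DNA (-0.04), Nr1h3 (0.05), Usf1 (0.04) and Usf2 (0.03) did not pass.

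**Figure D5:**
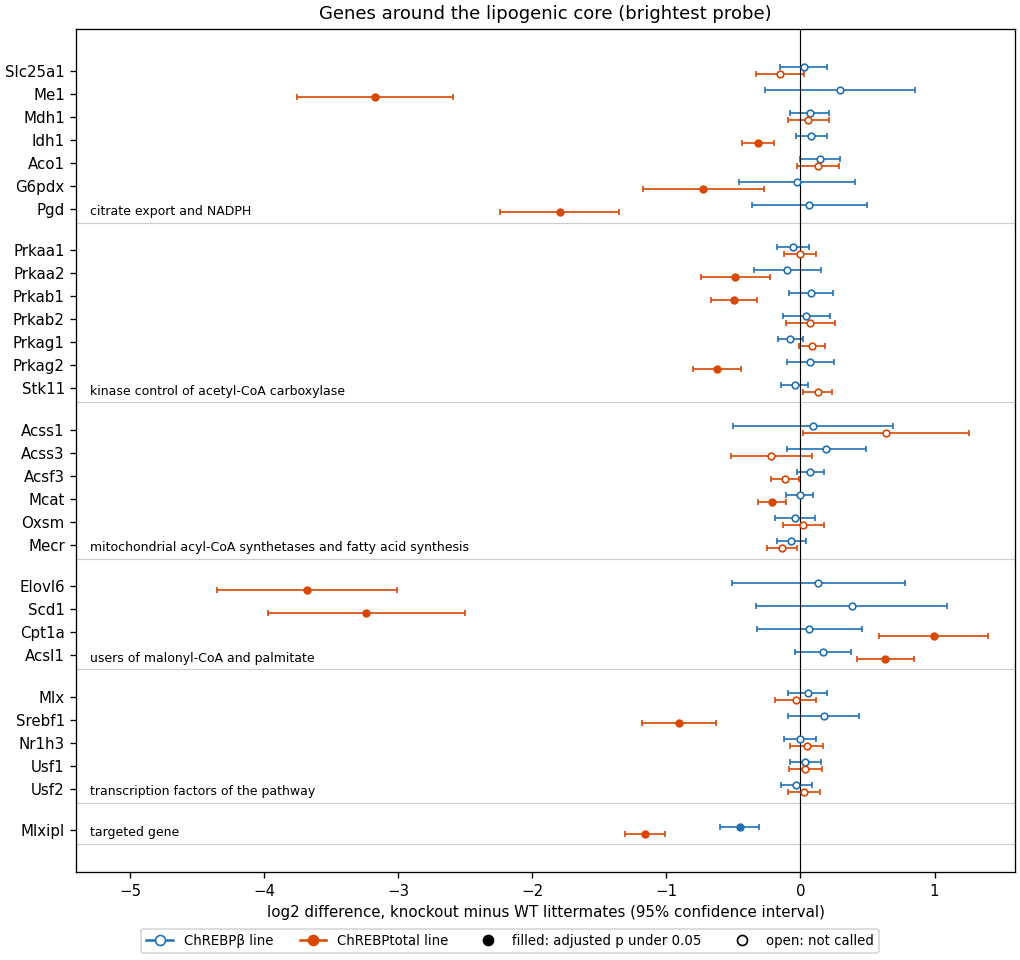
Log2 difference between knockout mice and WT littermates (horizontal axis) on the brightest probe of each gene around the lipogenic core and of Mlxipl, with 95% confidence intervals, filled where called. In total ChREBP-KO mice Elovl6 (-3.68), Scd1 (-3.24) and Me1 (-3.18) stand lowest and Cpt1a (0.995) highest, and in ChREBPβ-deficient mice Mlxipl alone is filled.

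Promoter sequences were read from RefSeq (GRCm38.p6) in windows of 250 bases before to 50 after a start, which held 1 window for each of the 8 genes. CCAAT was searched on both strands and was found in 6 of the 8, which are Acss2, Acacb, Thrsp, Mlycd, Acly and Fasn, and in 37.4% of all 32851 windows. The E-box CACGTG was in 0 of the 8 and in 7.15% of all windows. The sterol regulatory element was searched as an exact string of letters, which was in 0 of 8 and in 0.0913% of all windows. Variants of that string were not counted, so its absence does not show that these promoters lack the element. The carbohydrate response element consensus was in 0 of 8 and in 0.119%. A match is a string of letters and not a site, and these windows leave out all sequence farther from the start. The 150 bases before the start are shown for the 3 genes with the largest falls and for Mlycd, which did not fall, with CCAAT or its reverse complement in capitals, 5′ to 3′ on the strand of the gene. They are Thrsp at chr7:97417551-97417700 (minus strand), Acacb at chr5:114165368-114165517 (plus), Fasn at chr11:120824548-120824697 (minus) and Mlycd at chr8:119394744-119394893 (plus).
Thrsp: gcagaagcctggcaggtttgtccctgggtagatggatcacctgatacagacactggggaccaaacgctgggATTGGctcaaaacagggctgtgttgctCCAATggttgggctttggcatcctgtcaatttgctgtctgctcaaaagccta
Acacb: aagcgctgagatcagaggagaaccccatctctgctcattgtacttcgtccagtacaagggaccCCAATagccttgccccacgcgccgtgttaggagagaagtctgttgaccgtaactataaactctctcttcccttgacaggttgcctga
Fasn: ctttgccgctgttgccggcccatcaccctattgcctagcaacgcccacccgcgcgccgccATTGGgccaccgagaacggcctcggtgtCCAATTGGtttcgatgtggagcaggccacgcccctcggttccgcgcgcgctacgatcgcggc
Mlycd: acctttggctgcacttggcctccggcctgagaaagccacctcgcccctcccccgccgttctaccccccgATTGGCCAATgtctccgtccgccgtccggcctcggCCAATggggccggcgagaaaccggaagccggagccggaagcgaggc
Counted on both strands, these 150 bases held the motif 2 times in Thrsp, 1 time in Acacb, 3 times in Fasn and 3 times in Mlycd. Whether the motif bears on the differences was not tested.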

How the data were processed

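The authors deposited scanner files of Agilent Feature Extraction 10.10.1.1 holding the intensity of each spot (SurePrint G3 Mouse GE v2, mm9 annotation), without normalization across arrays, and also log2 values in 1 table, made with limma by weighting, quantile normalization and reduction of replicate probes. Following the study's methods, log2 of the median intensity was taken without background subtraction. Spots had weight 1 when found, positive and well above background, and were kept with weight 1 on at least 26 arrays or 6 arrays of 1 group. Values were quantile normalized over 31 arrays and reduced to the median per probe. They correlated with the deposited log2 table at 0.999995, which has 36057 of the 36059 probes. Arrays correlated with each other at 0.980 to 0.999. The number of arrays per group limits the precision.

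The 4 groups entered 1 linear model (limma 3.58.1, R 4.3.3, lmFit and eBayes) with Benjamini-Hochberg adjustment over all probes. Replicates are mice, and groups came from the sample labels. Replicate 3 of total ChREBP-KO mice was not analysed here. Exact permutation tests used Python 3.11.15. Figures were drawn with matplotlib 3.10.9. The brightest probe is that with the highest mean over all arrays. Programs were tested on simulated data. The 15 slides, 13 of them with several groups, and the 2 scan days served as blocks among the alternatives. Named genes are all members, Mlxipl, the genes of the 5 lists, and the 10 genes most alike to Fasn. The members, lists and tests were chosen with earlier results of these data known.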

Additional observations from a re-analysis of the deposited data

Results flagged for a closer look

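In 2 of the 32 combinations of gene and group 1 mouse lay far from the others by Dixon's test, and chance flags about 1 in 20. They were the Acly signal of 17.00 in WT littermate replicate 5 of the ChREBPβ line and the Mlycd signal of 13.93 in replicate 1 of the same group. The knockout effect differed between the lines by a test of the difference itself for 7 genes. The effect in total ChREBP-KO mice minus that in ChREBPβ-deficient mice was -4.91 for Thrsp, -4.00 for Acacb, -3.36 for Fasn, -2.95 for Acly, -2.24 for Mid1ip1, -2.04 for Acaca and -1.26 for Acss2.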

How the results depend on the processing

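The number of member probes called in total ChREBP-KO mice was 14 to 20 over the alternatives, where 14 came from a filter requiring all arrays, which leaves fewer probes, and 17 to 20 with any 1 array left out. It stayed 0 in ChREBPβ-deficient mice. Called differences of effects numbered 13 to 19. Between the WT littermates the 6 calls became 0 with slide as a fixed block and 2 with the exact Mann-Whitney test, and 3 to 8 with 1 array left out (3 without ChREBPtotal_WT replicate 1, 3 or 4 or ChREBPbeta_WT replicate 2). With the replicate block the calls were 19, 0, 18 and 7 in these 4 comparisons, and the numbers were not taken as pairs, since same-numbered mice correlated in their deviations at -0.16 to 0.53 in the ChREBPβ line, where 6 of 8 pairs were above 0.1, and at -0.21 to 0.24 in the total ChREBP-KO line, where 2 of 7 were, and not every mouse correlated best with its own number. With 1 array left out, the genes of the lists called higher in total ChREBP-KO mice ranged from 3 to 5 (5 without ChREBPtotal_WT replicate 6), and the extra fall of Acacb beyond that of Fasn from 0.54 to 0.87. Relations with Fasn that passed fell from 14 to 4 without the 2 farthest mice, with 5 or 6 mice left. Fewer mice and a narrower range of Fasn by themselves make it harder to pass. Signs turned where values were near 0 and not called. In ChREBPβ-deficient mice Acaca was -0.0216 with 75th-percentile scaling of the median signal, -0.00089 with slide as a fixed block and -0.0678 to 0.13 with 1 array left out, and Mlycd was -0.0033 with slide as a fixed block. Between WT littermates Mlycd was 0.0059 by the Mann-Whitney setting and -0.0747 to 0.00019 with 1 array left out, and Thrsp was -0.0491 and Acly -0.0508 with slide as a fixed block. Acacb A_66_P110803 in total ChREBP-KO mice was -0.0749 to 0.0187 with 1 array left out. The causes were not tested. The leave-out of 6 arrays was chosen after seeing the data.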
